A study of Mus musculus with 7 samples.

Results

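Open chromatin was examined at 32 genes that are characteristic of endothelial cells, the cells that line blood and lymph vessels, among the 20665 protein-coding genes on the mouse autosomes. The genes were listed by name from what is known of endothelium, and the list has no threshold on a peak value. All 32 were found in the RefSeq gene table of GRCm38.p6. Each was read as open at a gene end in a library when the summit of a listed peak lay within 1 kb of either end of the gene, and its locus peaks were those with a summit inside the gene or within 25 kb of it. Counts are from the full deposited lists unless said otherwise, and the main ones are given again at equal length, for the 38000 most significant autosomal peaks per library.

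ATAC-seq, in which a transposase tags accessible DNA, was done by the Omni-ATAC protocol on 7 mouse libraries in 5 groups. The first group was ectoderm peeled with Dispase II from the first pharyngeal arches of embryos at embryonic day 11.5 (2 libraries). Sox2-positive cells, called dental epithelial stem cells (DESC) in the titles, were sorted by flow cytometry from the dissociated labial cervical loop of the lower incisor at postnatal day 2 (2 libraries). From postnatal day 2 there was also 1 library each of the entire lower incisor, lower first molar and upper first molar. The sorted cells came from the Sox2-GFP line, in which the endogenous Sox2 promoter drives the fluorescent protein, so the sort takes whatever cells express that reporter. The labels do not say whether the other tissues came from the same line, nor the strain, the sex, the gate or how many animals were pooled. They do not say that replicates came from separate animals either.

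Endothelial cells are kept in their state by transcription factors of the ETS family (Erg, Fli1, Ets1) and the SoxF group (Sox7, Sox17, Sox18), which bind enhancers and promoters of vessel genes. Growth factors of the VEGF and angiopoietin families act on them through the receptor kinases Kdr, Flt1, Flt4 and Tek. Tooth pulp and the tissue around the tooth germ carry vessels, while peeled ectoderm and sorted epithelial cells should hold few. In whole tissue, fewer vessel cells and less open chromatin per vessel cell cannot be told apart.

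RefSeq promoter windows, from 250 bases before a transcription start to 50 after it, were given for 16 of the 32 genes and hold 22 starts. Of these, 7 were chosen with their values in view. Others that differed as strongly among libraries are not shown, such as a Prox1 start with peaks in both ectoderm libraries alone. The 7 are windows with a peak in some libraries only, the starts of Egfl7, and a vessel marker without a promoter peak. They are Tie1 (the angiopoietin co-receptor), Eng (endoglin, a BMP9 and TGF-beta co-receptor), Flt4 (the VEGF-C receptor), the 3 starts of Egfl7 (a secreted vessel protein) and Emcn (endomucin, a surface sialomucin). Sequences read 5′ to 3′ on the gene's strand, with GRCm38.p6 coordinates, and capitals mark the ETS core letters AGGAAG and CGGAAG on either strand.
Tie1, chr4:118489800-118490099, minus strand: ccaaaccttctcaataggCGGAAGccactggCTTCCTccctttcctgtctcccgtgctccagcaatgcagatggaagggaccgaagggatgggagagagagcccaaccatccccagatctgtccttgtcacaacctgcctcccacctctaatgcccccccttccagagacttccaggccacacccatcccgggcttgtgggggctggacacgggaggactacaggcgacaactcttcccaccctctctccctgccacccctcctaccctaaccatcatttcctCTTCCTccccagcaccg
Eng, chr2:32646345-32646644, plus strand: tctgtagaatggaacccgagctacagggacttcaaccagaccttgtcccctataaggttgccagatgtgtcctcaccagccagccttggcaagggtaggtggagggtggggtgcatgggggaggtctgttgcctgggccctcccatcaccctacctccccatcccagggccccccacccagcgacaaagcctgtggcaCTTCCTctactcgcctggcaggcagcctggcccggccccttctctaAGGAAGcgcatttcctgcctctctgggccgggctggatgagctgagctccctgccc
Flt4, chr11:49609429-49609728, plus strand: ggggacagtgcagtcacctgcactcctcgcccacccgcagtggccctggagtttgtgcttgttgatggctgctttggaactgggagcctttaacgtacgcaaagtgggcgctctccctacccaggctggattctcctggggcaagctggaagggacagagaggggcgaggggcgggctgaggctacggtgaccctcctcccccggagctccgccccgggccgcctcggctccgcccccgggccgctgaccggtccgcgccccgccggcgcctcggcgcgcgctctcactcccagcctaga
Egfl7 first start, chr2:26580833-26581132, plus strand: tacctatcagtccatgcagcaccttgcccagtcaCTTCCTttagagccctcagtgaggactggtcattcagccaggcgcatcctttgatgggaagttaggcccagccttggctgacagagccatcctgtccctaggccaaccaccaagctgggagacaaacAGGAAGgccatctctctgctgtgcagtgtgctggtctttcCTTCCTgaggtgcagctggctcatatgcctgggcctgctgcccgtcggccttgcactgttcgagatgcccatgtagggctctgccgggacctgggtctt
Egfl7 second start, chr2:26583615-26583914, plus strand: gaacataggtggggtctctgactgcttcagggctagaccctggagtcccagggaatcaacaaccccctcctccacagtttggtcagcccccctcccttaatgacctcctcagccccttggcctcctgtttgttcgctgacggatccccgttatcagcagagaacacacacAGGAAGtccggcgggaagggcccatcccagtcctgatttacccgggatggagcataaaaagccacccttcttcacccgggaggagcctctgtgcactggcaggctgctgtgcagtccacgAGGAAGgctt
Egfl7 last start, chr2:26586386-26586685, plus strand: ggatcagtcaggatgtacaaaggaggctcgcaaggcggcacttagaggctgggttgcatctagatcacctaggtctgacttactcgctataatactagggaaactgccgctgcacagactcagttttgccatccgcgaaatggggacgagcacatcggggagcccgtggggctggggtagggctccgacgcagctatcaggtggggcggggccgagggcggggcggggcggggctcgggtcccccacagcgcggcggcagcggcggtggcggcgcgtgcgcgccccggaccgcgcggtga
Emcn, chr3:137340828-137341127, plus strand: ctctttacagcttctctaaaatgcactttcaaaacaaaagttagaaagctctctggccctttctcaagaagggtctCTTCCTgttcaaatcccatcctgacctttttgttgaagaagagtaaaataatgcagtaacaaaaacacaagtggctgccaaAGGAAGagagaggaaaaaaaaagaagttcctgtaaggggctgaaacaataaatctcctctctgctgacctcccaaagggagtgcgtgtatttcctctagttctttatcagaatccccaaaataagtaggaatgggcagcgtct

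The Tie1 window was under a peak in Sox2-positive replicate 2, incisor and lower molar. The Eng window was under a peak in Sox2-positive replicate 2 and incisor, with signals of 270 and 379. The Flt4 window was under a peak in both ectoderm libraries, in Sox2-positive replicate 2 and in incisor, with signals of 876, 332, 212 and 334. None of these 3 windows had a peak in Sox2-positive replicate 1 or upper molar. Signal here is the deposited value of a peak, an area over the caller's significance curve, and it was compared only within a list.

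At Egfl7 the first start had no peak in any library and the second had one in incisor alone, with a signal of 262. The third, a window of 67.3% G and C, was under a peak in all 7 libraries, at within-list signal percentiles from 75.2 to 89.2. Its window has no AGGAAG, while the first holds 3 and the second 2. The gene hosts the microRNA miR-126a, known as abundant in endothelium, whose mature form is shown because its host promoters differed so widely, with its seed in capitals.
miR-126a-3p, chr2:26591402-26591423, plus strand: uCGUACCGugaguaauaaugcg
The nearest peak lay from 1727 bp (Sox2-positive replicate 2) to 3936 bp (ectoderm replicate 2) from the miR-126a hairpin, so no library had a peak over it. The Emcn window had no peak in any library either, nor had the windows of Tek, of Robo4 or of the 3 starts of Erg.

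Across the 22 windows, 5 were under a peak in incisor and Sox2-positive replicate 2 but not replicate 1 (Cd34, Eng, Tie1, Flt1 and Flt4), against 1.76% of all 31396 promoter windows. None was under a peak in incisor and replicate 1 but not replicate 2, against 1.52%. With the top 38000 peaks, 3 windows had the first pattern (Eng, Tie1 and the second start of Gata2; 1.6% of all windows) and 0 the second (0.637%). Incisor without either molar held 5 windows (second start of Egfl7, Eng, first start of Gata2, Rasip1 and Flt4; 1.06% of all windows), and both molars without incisor held 0 (1.69%). At equal length these were 3 (Eng, Tie1 and the second start of Gata2; 1.52%) and 1 (Cldn5; 1.44%). The letters AGGAAG were in 10 of the 22 windows and in 35.1% of all promoter windows, and CGGAAG was in 1 of 22, Tie1, and in 17.0% of all. The FOX letters TGTTTAC (3.71% of all windows) and the AP-1 letters TGANTCA (7.84%) were in none of the 22, the SOX letters ACAATG in 1 (12.2%) and the GATA letters AGATAA in 2 (11.2%). All were searched on both strands, and the ETS letters differ in their first base and cannot match at the same place. A match describes letters and not a bound site.

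Lists differed in length, from 38326 autosomal peaks in Sox2-positive replicate 2 to 80850 in ectoderm replicate 1, and read depth is unknown because peak lists hold no counts. Keeping 38000 peaks set the weakest kept −log10 p at 2.94 in Sox2-positive replicate 2 and 3.33 in replicate 1, at 4.01 to 4.28 in the whole teeth, and at 3.82 and 4.79 in the ectoderm, so equal length is not equal stringency. No test was run: an exact permutation test of 2 libraries against 2 cannot give a two-sided p below 0.333, and the teeth have 1 library each. Percentiles of signal give a peak's place within its own list, and since lists differ in length they set no order between libraries. Epithelial markers (Krt5, Krt14, Epcam and 7 more) had gene-end peaks at 7 or 8 of 10 genes in every full list, with none at Trp63, a basal epithelial factor, in any. Mesenchymal markers had them at 7 and 6 of 10 in ectoderm, at 9 and 7 in the sorted cells and at 8 to 9 in the teeth. Blood and immune markers had them at 2 or 3 of 12 in every library, with Ptprc, Csf1r, Cx3cr1, Aif1, Itgam, Lyz2, Cd52 and Laptm5 at 0 throughout. Of all genes, 55% to 64.6% had them in the full lists. Among the top 38000 peaks epithelial markers had them at 7 and 8 in ectoderm, 8 in each sorted replicate, 5 in incisor and 7 in each molar. Mesenchymal markers then had them at 5 in each ectoderm library, 8 and 7 in the sorted cells, 8 in incisor and 6 in each molar, beside 52.6% to 58.3% of all genes.

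The share of endothelial genes with a gene-end peak lay near that of all genes in ectoderm and incisor in the full lists, and below it in the sorted cells and the molars. At equal length it lay below that of all genes in every library. In the full lists 19 and 20 of the 32 (59.4% and 62.5%) had a gene-end peak in the ectoderm replicates, beside 64.6% and 61.5% of all genes. Sox2-positive replicates had 11 and 15 (34.4% and 46.9%), beside 56.2% and 55%. Incisor had 19 (59.4%, beside 58.6% of all genes), lower molar 17 (53.1%, beside 60.1%) and upper molar 15 (46.9%, beside 60%). Among the top 38000 peaks ectoderm had 14 and 16 (43.8% and 50%, beside 56.6% and 58.3% of all genes) and Sox2-positive cells 10 and 15 (31.2% and 46.9%, beside 54.9% and 54.8%). Incisor had 10 (31.2%, beside 52.6%), lower molar 10 (31.2%, beside 53%) and upper molar 9 (28.1%, beside 53.1%). The counts of the sorted replicates thus differed by 4 to 5. In the full lists 6 genes had a peak in replicate 2 and not replicate 1 (2.17% of all genes), and 2 the reverse (3.36%). At equal length these were 7 (2.78%) and 2 (2.86%).

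**Figure D1:**
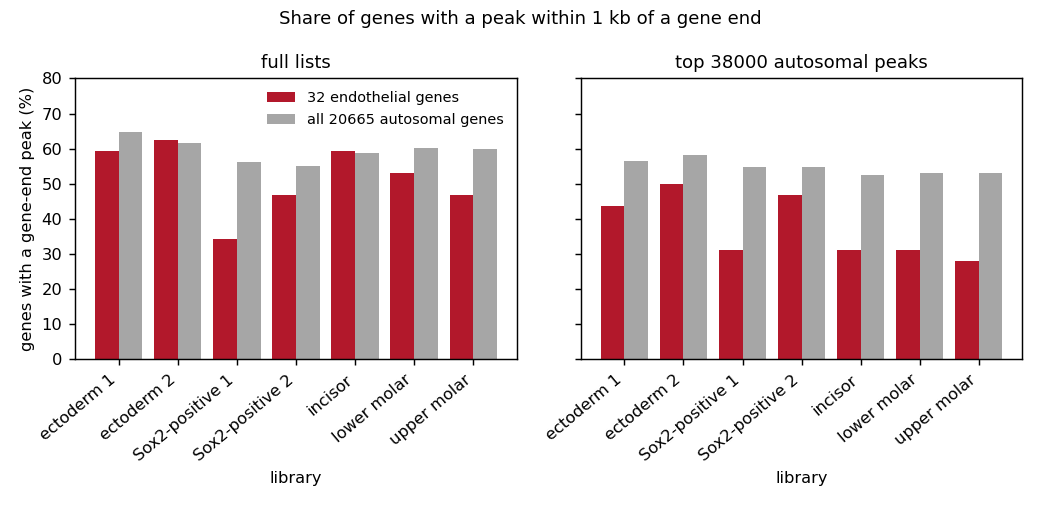
Share of genes (%) with a peak summit within 1 kb of a gene end in each of the 7 libraries, for the 32 endothelial genes (red) and all 20665 autosomal protein-coding genes (grey), full lists at left and top 38000 peaks at right. Each bar is 1 library; red bars lie below grey in every library at right, and at or just above grey in ectoderm 2 and incisor at left.

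The peaks were also weaker than those of other genes within each list. Among genes with a gene-end peak, the best peak of the endothelial genes stood at a median signal percentile of 78.4 and 63.9 in the ectoderm replicates, where all genes stood at 88.5 and 84.0. In Sox2-positive cells the medians were 61.2 and 52.7 against 82.4 and 81.2. They were 59.8, 56.6 and 68.7 in incisor and in lower and upper molar, against 86.9, 87.5 and 87.1.

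**Figure D2:**
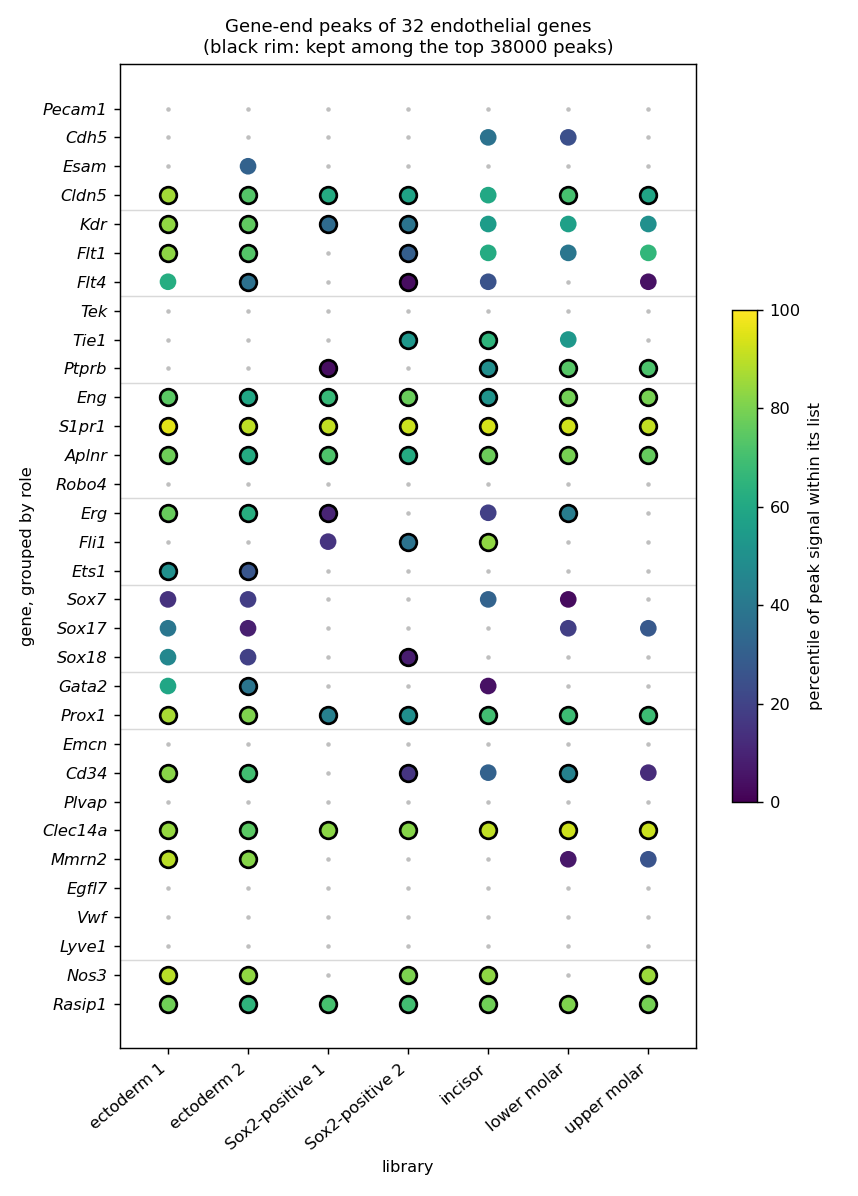
Gene-end peaks of the 32 endothelial genes (rows, grouped by role) in the 7 libraries (columns). Colour gives the within-list percentile of the strongest gene-end peak's signal, a black rim marks genes with a gene-end peak among the top 38000, and small grey dots mark no peak. S1pr1 and Clec14a are bright in all 7 columns, and 8 rows hold no peak at all.

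Gene-end peaks were present in all 7 libraries at 8 genes, Cldn5, Kdr, Eng, S1pr1, Aplnr, Prox1, Clec14a and Rasip1 (50.3% of all genes had this pattern). Among the top 38000 peaks Cldn5 and Kdr dropped out and 6 were left (46.5% of all genes). Another 8 genes, Pecam1, Tek, Robo4, Emcn, Plvap, Egfl7, Vwf and Lyve1, had none in any library, beside 31.2% of all genes. Among the top 38000 peaks this was so for 12 (36.3%). The genes without a gene-end peak include some of the most used vessel markers, such as Pecam1 (the adhesion molecule CD31), Vwf (von Willebrand factor) and Lyve1 (the hyaluronan receptor of lymph vessels).

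No gene had a gene-end peak in all 3 whole teeth and in neither Sox2-positive library (0 of 32; 1.48% of all genes, and 0 with 0.237% among the top 38000 peaks). In incisor and neither Sox2-positive library were 3, Cdh5, Sox7 and Gata2 (2.75%), and 0 among the top 38000 (0.682%). Ptprb was the single gene open in the 3 teeth and neither ectoderm library, in both versions of the lists (1.11% and 0.919%). In both ectoderm libraries but no tooth were Ets1 and Sox18 (3.29%), and among the top 38000 Kdr, Flt1, Ets1 and Mmrn2 (4.03%). Both ectoderm and neither Sox2-positive library held Ets1, Sox7, Sox17, Gata2 and Mmrn2 (5 of 32; 6.01%), of which Ets1 and Mmrn2 remained among the top 38000 (3.45%). The reverse held for Fli1 alone in the full lists (0.823%). Both molars without incisor held Sox17 and Mmrn2 (2.41%), and Cldn5 among the top 38000 (2.06%), while incisor without either molar held Fli1 and Gata2 (1.16%), and Fli1 and Tie1 among the top 38000 (1.69%). Each of these patterns held 5 genes or fewer.

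Junction genes hold endothelial cells together. Cdh5 (VE-cadherin) had a gene-end peak in incisor, signal 433, and in lower molar, signal 323, at within-list percentiles of 37.8 and 24.4. No other library had one, and neither peak was among the top 38000. Esam (an adhesion molecule of tight junctions) had one in ectoderm replicate 2 alone, signal 385, and ends of Msantd2 and Vsig2 lie within 2 kb of it. Cldn5 (a tight junction claudin) had peaks of 2240 and 1468 in ectoderm, 689 and 690 in Sox2-positive cells, and 735, 1015 and 734 in incisor and in lower and upper molar. They stood at percentiles of 86.0 and 73.1 in ectoderm and 58.0 to 70.6 elsewhere, and the incisor peak was not among the top 38000.

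Among VEGF receptors, Kdr (VEGFR2, the main signalling receptor of blood vessels) had gene-end peaks at percentiles of 83.5 and 75.8 in ectoderm, 34.7 and 38.6 in Sox2-positive cells, and 54.8, 56.6 and 49.7 in incisor and in lower and upper molar. The incisor peak lay at the far end of the gene, and the one at its start ranked at 45.6. At equal length Kdr kept its gene-end peak in the 4 ectoderm and Sox2-positive lists and lost it in every tooth. Flt1 (VEGFR1, a receptor that also traps its ligand) ranked at 82.9 and 73.1 in ectoderm, at 29.9 in Sox2-positive replicate 2, and at 61.0, 39.1 and 65.8 in the teeth. Sox2-positive replicate 1 had no Flt1 gene-end peak. Flt4 ranked at 61.8 and 37.0 in ectoderm, 3.2 in Sox2-positive replicate 2, 25.7 in incisor and 4.5 in upper molar, with none in the other 2 libraries. The Flt4 peaks given for ectoderm replicate 2 and upper molar lay at the far end of the gene. At its start, ectoderm replicate 2 ranked at 24.8 and upper molar had no peak.

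The angiopoietin pathway genes divided in another way. Tek (Tie2, the angiopoietin receptor) had no gene-end peak anywhere. Tie1 had peaks with signals of 597 in Sox2-positive replicate 2, 856 in incisor and 614 in lower molar, at percentiles of 52.7, 65.1 and 53.3, all at the transcription start printed above. Both ectoderm libraries, Sox2-positive replicate 1 and upper molar lacked one. Ptprb (VE-PTP, the phosphatase that acts on Tek) had signals of 213 in Sox2-positive replicate 1, 559 in incisor, 1118 in lower molar and 1097 in upper molar. They ranked at 3.8, 48.8, 73.5 and 71.8 in that order, and all were among the top 38000. An end of Ptprr lies within 2 kb of Ptprb, so the peak cannot be given to one gene alone.

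Of the 4 other receptors, 3 had gene-end peaks in all 7 libraries. S1pr1 (a sphingosine 1-phosphate receptor that steadies junctions) had the highest-ranked gene-end peak of the set in every library except upper molar, where Clec14a ranked higher: signals were 3881 and 3093 in ectoderm, 2022 and 2423 in Sox2-positive cells, and 2988, 2709 and 2490 in incisor and in lower and upper molar. The lowest of these percentiles was 90.1. Aplnr (the apelin receptor) ranked between 61.1 and 79.5 in all 7. Eng had gene-end peaks in all 7 at percentiles from 51.2 to 79.4, but those of 5 libraries lay only at the end shared with Fpgs, since the Eng start had peaks in incisor and Sox2-positive replicate 2 alone. Robo4 (a vessel guidance receptor) had none.

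ETS factor genes differed among themselves. Fli1 had gene-end peaks of 258 and 420 in the Sox2-positive replicates and 1677 in incisor, at percentiles of 15.2, 38.0 and 83.4, and none in ectoderm or molars. Erg ranked at 76.9 and 62.9 in ectoderm, 19.1 in incisor and 41.9 in lower molar, with a peak near the bottom of the list, signal 236, in Sox2-positive replicate 1. Ets1 was open at an end in ectoderm alone, at 49.7 and 26.9. Fli1 and Ets1 thus had no library in common.

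SoxF gene-end peaks were weak throughout. Sox7 ranked at 14.3 and 18.1 in ectoderm, 31.3 in incisor and 2.8 in lower molar. Sox17 ranked at 39.2 and 8.5 in ectoderm and at 18.6 and 27.6 in lower and upper molar. Sox18 ranked at 46.4 and 19.4 in ectoderm and 7.9 in Sox2-positive replicate 2, and had none in the teeth. Gata2, a factor of blood and vessel cells, had gene-end peaks at 59.0 and 38.9 in ectoderm and 4.5 in incisor, while a second start inside the gene was under a peak in all 7 libraries, from 10.8 in Sox2-positive replicate 1 to 67.2 in ectoderm replicate 1. Prox1, which sets lymphatic identity and is also active in other embryonic tissues, ranked at 87.1 and 80.7 in ectoderm, 43.2 and 49.3 in Sox2-positive cells and 68.4 to 69.5 in the teeth. A second Prox1 start had peaks in both ectoderm libraries alone, at percentiles of 90.3 and 84.8.

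Surface and matrix genes were at both extremes. Clec14a (a vessel surface lectin) ranked at 84.3 and 74.5 in ectoderm, 82.5 and 81.9 in Sox2-positive cells and 90.5, 92.2 and 92.2 in incisor and in lower and upper molar, and was kept among the top 38000 in all 7. Cd34 (a sialomucin of vessel and blood progenitor cells) ranked at 82.3 and 69.8 in ectoderm and from 12.4 to 44.3 in Sox2-positive replicate 2 and the teeth, and had none in Sox2-positive replicate 1. Mmrn2 (multimerin, a matrix ligand of Clec14a) ranked at 89.8 and 82.0 in ectoderm but at 6.4 and 26.0 in lower and upper molar, with none in the other 3 libraries; an end of Sncg lies within 2 kb of it. Nos3 (endothelial nitric oxide synthase) ranked from 80.2 to 89.4 in ectoderm, Sox2-positive replicate 2, incisor and upper molar, beside an end of Atg9b. Rasip1 (a Ras-interacting protein needed for vessel tubes) ranked from 65.0 to 80.9 in all 7 libraries at its far end, and its start had a weak peak, signal 280, in incisor alone. Ends of Izumo1 and Mamstr lie within 2 kb of an end of Rasip1.

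Counted relative to list length, peaks across whole loci were most frequent in incisor and Sox2-positive replicate 2. The 32 loci held 205 and 131 peaks in ectoderm, 101 and 120 in Sox2-positive cells, and 211, 175 and 141 in incisor and in lower and upper molar. Per 10000 autosomal peaks these were 25.4 and 26.3, 24.1 and 31.3, and 34.0, 25.4 and 21.0. Among 38000 peaks per library the counts were 81 and 102, 95 and 119, and 107, 82 and 77. Sox2-positive replicate 2 was then the highest, incisor second, and the molars were the lowest with ectoderm replicate 1. The ratio of the incisor rate to the Sox2-positive mean was 1.23 in the full lists and 1.00 at equal length. The ratio of the whole-tooth mean to the ectoderm mean was 1.04 and 0.969. Ectoderm had 25.9 ± 0.702 and Sox2-positive cells 27.7 ± 5.07 locus peaks per 10000 in the full lists (SD, n = 2 each). Incisor lay above both Sox2-positive replicates there, and between them at equal length, with 28.2 beside 25 and 31.3.

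**Figure D3:**
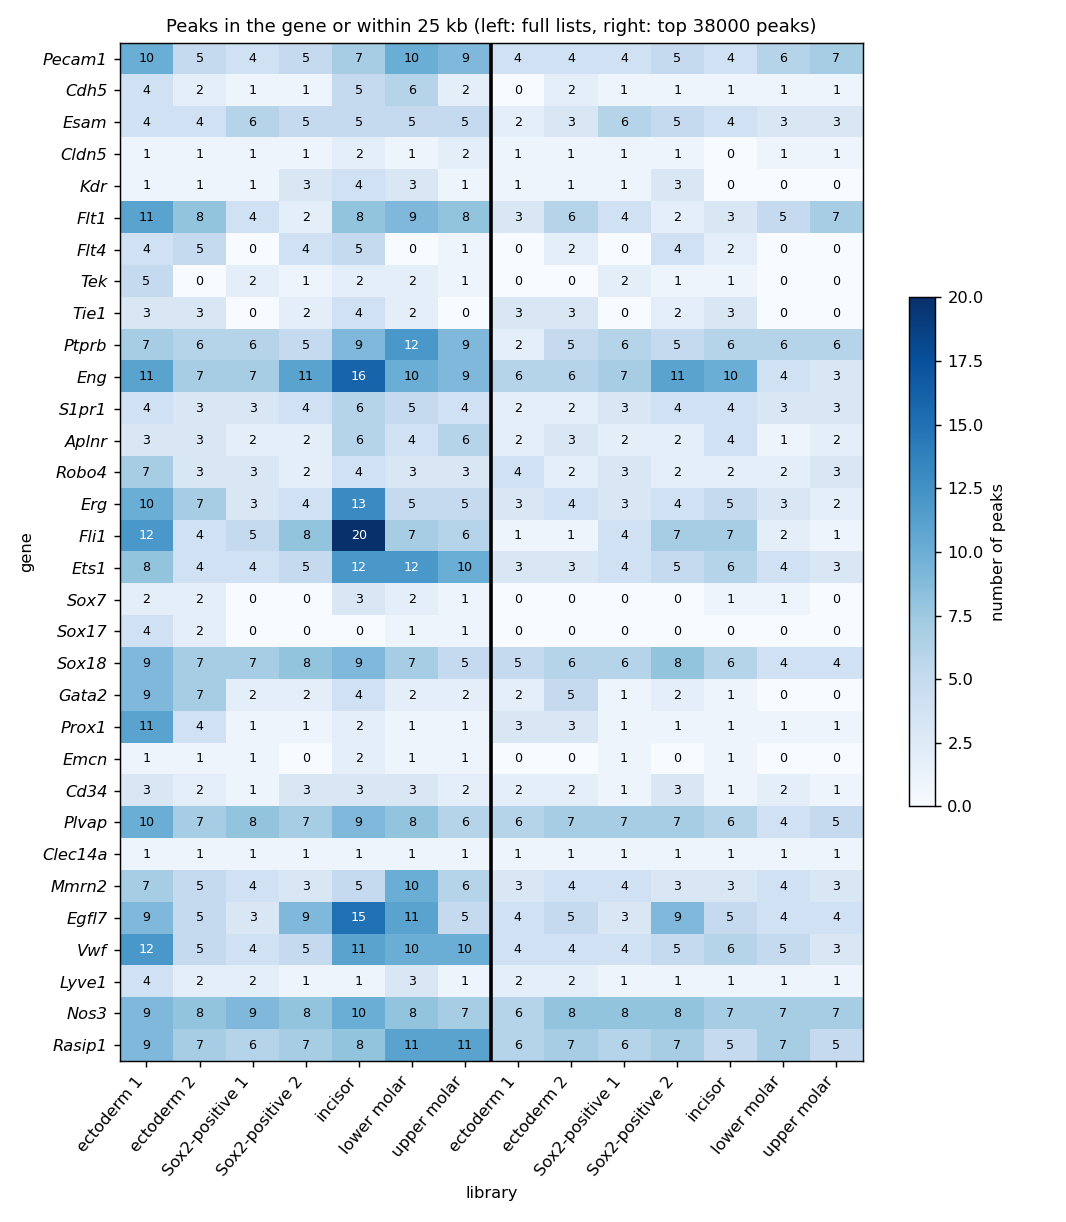
Number of peaks inside each gene or within 25 kb of it for the 32 endothelial genes (rows) in the 7 libraries (columns), full lists left of the black line and top 38000 peaks right of it, with darker blue for more peaks. The darkest cell is Fli1 in incisor with 20 peaks, and Sox17 has none among the top 38000 in any library.

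Genes without a gene-end peak still had locus peaks. Pecam1 had 10 and 5 in ectoderm, 4 and 5 in Sox2-positive cells, and 7, 10 and 9 in incisor and in lower and upper molar. Vwf had 12 and 5, 4 and 5, and 11, 10 and 10 in the same order, higher in every tooth than in either sorted library. Plvap (the diaphragm protein of fenestrated vessels) had 10 and 7, 8 and 7, and 9, 8 and 6, with 6 other genes within 25 kb. Robo4 had from 2 to 7, Tek from 0 to 5, Lyve1 from 1 to 4 and Emcn from 0 to 2 in the 7 libraries. Each tooth had more locus peaks than either Sox2-positive library at 11 of the 32 genes, beside 28.7% of all genes, and at 0 at equal length, beside 4.26%. Each tooth exceeded either ectoderm library at 4 genes (11.9%) and at 2 at equal length (11.6%).

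Incisor had more locus peaks than both molars at 17 of 32 genes, beside 16.4% of all genes: Kdr, Flt4, Tie1, Eng, S1pr1, Robo4, Erg, Fli1, Sox7, Sox18, Gata2, Prox1, Emcn, Plvap, Egfl7, Vwf and Nos3. The reverse was true of 4, Pecam1, Sox17, Mmrn2 and Rasip1, beside 27.7%. At equal length the counts were 16 (18.5%) and 3 (17.9%). Another gene lay within 25 kb of 20 of the 32 genes, such as Ak1, Fpgs and Cdk9 at Eng and Agpat2 at Egfl7. A locus peak can thus belong to a neighbour. With only full-list peaks more than 1 kb from ends of genes outside the 32, the counts were 16 (16.1%) and 4 (24.9%). Fli1 had 20 locus peaks in incisor against 7 and 6 in lower and upper molar, Egfl7 15 against 11 and 5, Eng 16 against 10 and 9, and Erg 13 against 5 and 5. Flt4 had 5 in incisor against 0 and 1, and Tie1 4 against 2 and 0. With the 50% of each list that had the smallest p-values, 11 genes were higher in incisor and 5 in the molars, beside 13.3% and 21.3%.

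Other cell type markers also differed between incisor and molars, in both directions. Of 10 epithelial markers, 0 had more locus peaks in incisor than in both molars and 8 had fewer, beside 16.4% and 27.7% of all genes. Their summed peaks were 57 in incisor and 94 and 88 in the molars, and 42, 55 and 52 at equal length. Of 10 mesenchymal markers, 3 had more in incisor in the full lists (16.4% of all genes) and 9 at equal length (18.5%). Their summed peaks were 68 in incisor against 61 and 53 in the full lists, and 46 against 28 and 24 at equal length. Mural markers, of the contractile cells around vessels, were higher in incisor at 5 of 10, with 64 summed peaks against 52 and 51. At equal length they were higher at 1 of 10, with 31 summed peaks against 27 and 28. Blood and immune markers were higher at 4 of 12, with 49 summed peaks against 41 and 41. Their sums at equal length were 33 against 26 and 29. The part of these marker differences in the endothelial counts was not tested.

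The sorted replicates differed at receptors, transcription factors and surface genes. Sox2-positive replicate 2 had gene-end peaks missing from replicate 1 at Flt1, Flt4, Tie1, Sox18, Cd34 and Nos3 (6 of 32; 2.17% of all genes), and replicate 1 had 2 missing from replicate 2, Ptprb and Erg (3.36%). At equal length these were 7, with Fli1 added (2.78%), and 2 (2.86%). The Erg peak of replicate 1 lay at the edge of the 1 kb window, as did the Erg gene-end peaks of both ectoderm libraries, incisor and lower molar. Replicate 2 had more locus peaks at 14 genes (18.5% of all genes) and replicate 1 at 10 (30.8%), and 15 (22.6%) and 7 (24.6%) at equal length. Egfl7 had 9 locus peaks in replicate 2 and 3 in replicate 1, Flt4 4 and 0, Eng 11 and 7, Fli1 8 and 5, and Tie1 2 and 0. Flt1 went the other way with 2 and 4.

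Among the strongest peaks the difference was smaller and had no majority for replicate 2 in locus counts. In the most significant 50% of each list, 6 genes had more locus peaks in replicate 2 (12.8% of all genes) and 7 in replicate 1 (21.1%). Gene-end peaks of replicate 2 missing from replicate 1 then numbered 2, Prox1 and Nos3 (2.58%), and the reverse 0 (3.64%). In the full lists, replicate 2 had more locus peaks at 5 of 10 mural and 5 of 12 blood and immune markers. It had more at 3 of 10 epithelial and 1 of 10 mesenchymal markers, beside 18.5% of all genes. Summed full-list peaks in replicates 1 and 2 were 37 and 45 for mural and 32 and 37 for blood and immune markers. They were 47 and 38 for epithelial and 46 and 41 for mesenchymal markers. At equal length the sums were 33 and 45 for mural and 27 and 37 for blood and immune markers. Those of epithelial markers, 40 and 38, and of mesenchymal markers, 42 and 41, were then nearly the same in both replicates. Whether cells other than the sorted epithelium account for part of the difference was not tested.

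**Figure D4:**
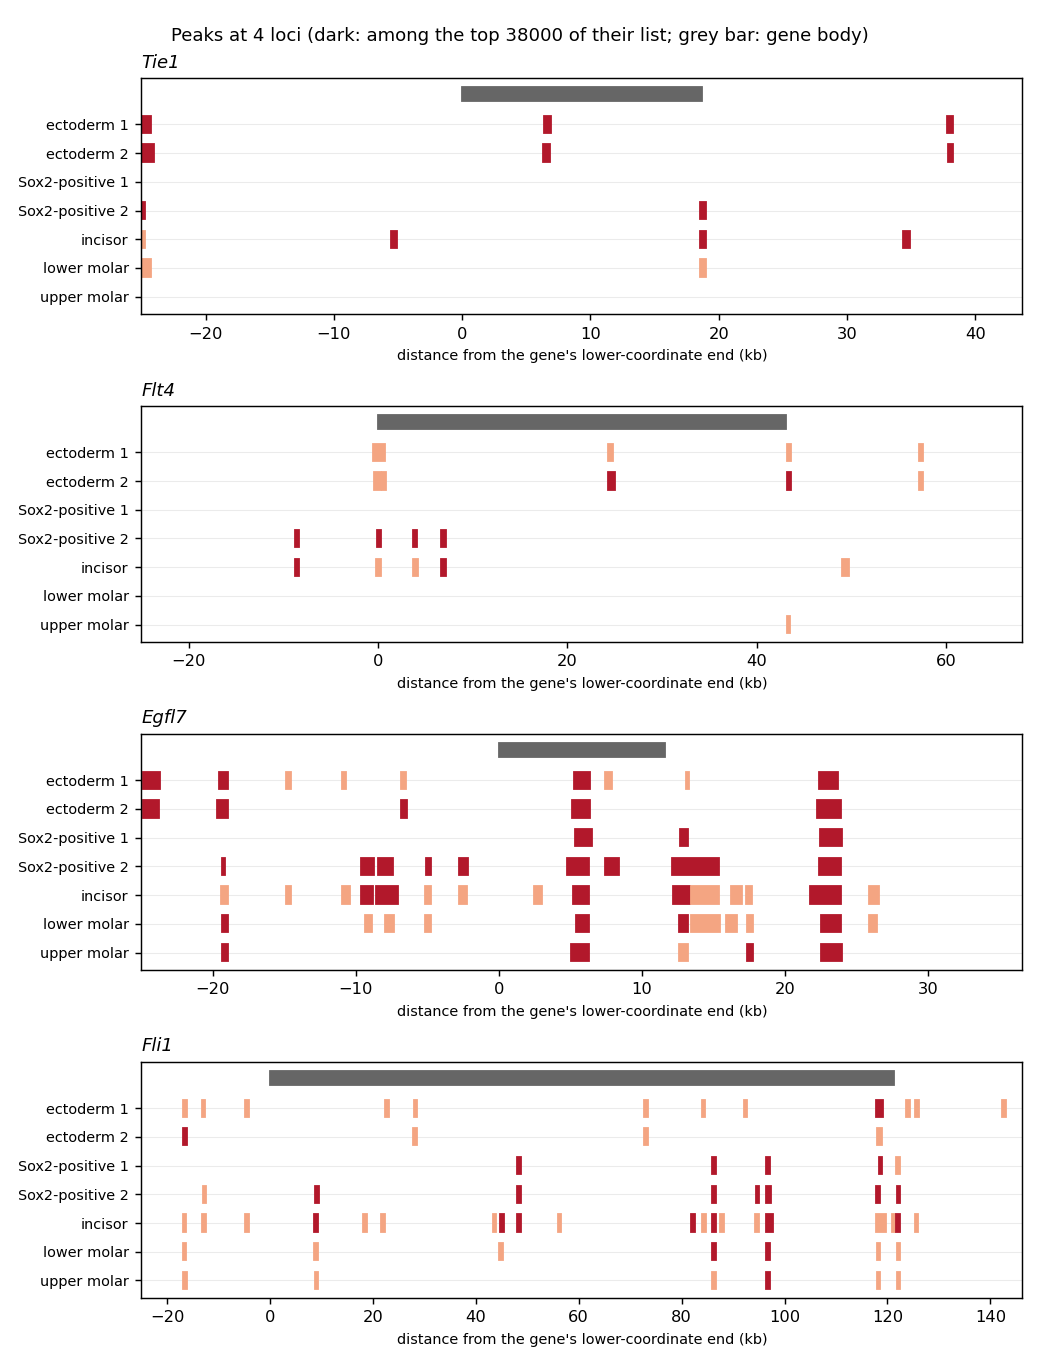
Peaks at Tie1, Flt4, Egfl7 and Fli1 in the 7 libraries (rows), against distance from the end of the gene with the lower coordinate (kb); the grey bar is the gene, dark red marks peaks among the top 38000 and light red the other listed peaks. Between 10 and 2 kb before Egfl7, Sox2-positive 2 and incisor show 4 peaks each, lower molar 3, each ectoderm library 1, and the other libraries none.

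Joining overlapping peaks of the 7 lists gave 338 regions at the 32 loci, of 97761 at all genes. Regions are made of the same peaks as the locus counts above, so they are another view of those counts. Regions with a peak in incisor and Sox2-positive replicate 2 but not replicate 1 numbered 42, or 12.4%, at 20 of the genes, beside 5.21% of regions at all genes. Those in incisor and replicate 1 but not replicate 2 were 17, or 5.03%, beside 4.94%. At equal length they were 25 of 197 (12.7%; 6.28% of all) and 6 of 197 (3.05%; 3.16%). The 42 regions ranked low in Sox2-positive replicate 2, at a median percentile of 16.3, and in the middle in incisor, at 51.1, and lower molar had a peak in 29 of them and upper molar in 17. None lay within 1 kb of an end of another gene. Egfl7 and Eng held 5 each, Flt4 4, and Fli1 and Sox18 3 each.

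**Figure D5:**
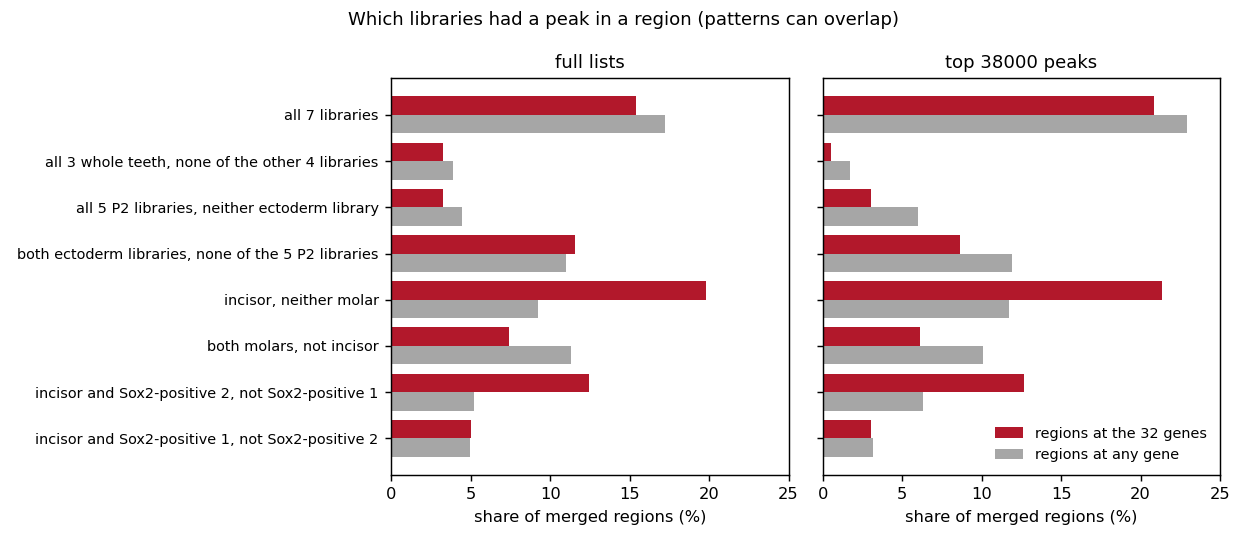
Share of merged regions (%) with each pattern of libraries, for regions at the 32 endothelial genes (red) and at any gene (grey), full lists at left and top 38000 peaks at right; patterns can overlap. Red exceeds grey by most for incisor without molars and for incisor with Sox2-positive 2 but not 1.

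Regions open in incisor and neither molar numbered 67 (19.8%, beside 9.2% of all), and those in both molars but not incisor 25 (7.40%, beside 11.3%). At equal length they were 42 (21.3%; 11.7%) and 12 (6.09%; 10.1%). Regions open in all 3 teeth and none of the other 4 libraries were 11 of 338 (3.25%, beside 3.87% of all), and 1 of 197 at equal length (0.508%, beside 1.7%). The 1 that remained lay outside Esam, 19.9 kb from its nearer end, at chr9:37507859-37508549, with signals of 874 in incisor, 1892 in lower molar and 1669 in upper molar at percentiles of 65.9, 86.1 and 82.7. An end of Msantd2 lay nearer to it, at 17.9 kb. Regions in both ectoderm libraries and none of the 5 postnatal libraries were 39 (11.5%, beside 11%), and 17 at equal length (8.63%, beside 11.9%). Those in all 7 were 52 (15.4%, beside 17.2%), and 41 at equal length (20.8%, beside 22.9%).

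Other tooth-only regions were inside Ets1 (chr9:32713866-32714761 and chr9:32700275-32700910), Pecam1 (chr11:106665361-106665807) and Vwf (chr6:125577043-125577635). Further ones lay outside Mmrn2 (chr14:34353157-34353650), Ptprb (chr10:116252647-116253153) and Aplnr (chr2:85163418-85164182). The Mmrn2 region lay 22.1 kb from Mmrn2 but 1.52 kb from an end of Fam25c. The Ptprb region lay 22.6 kb from Ptprb and 22.0 kb from Ptprr, and the Aplnr region 23.9 kb from Aplnr and 24.3 kb from Lrrc55. The first Ets1 region and the Mmrn2 region ranked at 48.8 and 34.1 in incisor, 78.0 and 69.8 in lower molar and 71.8 and 63.8 in upper molar. The Vwf and Aplnr regions ranked at 57.6 and 67.4 in incisor and from 27.7 to 39.7 in the molars. Pecam1 and Vwf, which had no gene-end peak anywhere, thus each had a peak region inside the gene in all 3 teeth in the full lists. The Pecam1 region ranked at 12.2 in incisor, 42.8 in lower molar and 44.9 in upper molar. At equal length it was kept in the molars alone, and the Vwf region in incisor alone. Both loci also held other peaks in the sorted cells and ectoderm. A single region near Fli1, chr9:32405216-32405799, was open in the teeth and both ectoderm libraries but not in the sorted cells, and it lay 6.31 kb from Kcnj1.

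Several strong regions shared by all 7 libraries lay nearer to another gene. The highest-ranked, at chr7:45642946-45644854, lay 4.81 kb from Rasip1 and 4.31 kb from Mamstr, with percentiles from 94.5 to 98.5. One at Egfl7, chr2:26602831-26605054, lay 0.475 kb from an end of Agpat2 and 11.3 kb from Egfl7. That of S1pr1 (chr3:115714524-115715947) lay at the gene's own end, 173 kb from Dph5, and that of Ets1 (chr9:32695475-32696562) inside the gene, 153 kb from Fli1. Of the 52 shared regions, 16 lay within 1 kb of an end of another gene and 8 within 1 kb of an end of the endothelial gene itself.

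Other vascular genes were read beside the 32. A list of 33 further endothelial genes had gene-end peaks at 26 and 23 in ectoderm, 17 and 20 in Sox2-positive cells and 22, 22 and 19 in incisor and in lower and upper molar. These are 78.8% and 69.7%, 51.5% and 60.6%, and 66.7%, 66.7% and 57.6%, above the share of all genes in 5 libraries and below it in Sox2-positive replicate 1 and upper molar. Among the top 38000 peaks the counts were 17, 19, 17, 20, 18, 17 and 16 in the same order. These are 51.5% and 57.6%, 51.5% and 60.6%, and 54.5%, 51.5% and 48.5%. All genes then had 56.6% and 58.3%, 54.9% and 54.8%, and 52.6%, 53% and 53.1%, so only Sox2-positive replicate 2 and incisor lay above. Locus peaks of this list per 10000 were 28.4 and 32.8 in ectoderm, 29.9 and 36.3 in Sox2-positive cells and 30.8, 26.7 and 26.2 in the teeth, so that incisor lay below ectoderm replicate 2 here. Of these 33, 12 had more locus peaks in incisor than in both molars and 9 had fewer, beside 16.4% and 27.7% of all genes. Sox2-positive replicate 2 had more than replicate 1 at 14 and fewer at 8, beside 18.5% and 30.8%. Of the sorted replicates, only replicate 2 had full-list gene-end peaks at Nrp1, a VEGF co-receptor, and at the transcription factors Hhex and Foxc2. This pattern held for 2.17% of all genes. Ectoderm and the teeth all had such peaks at Nrp1 and Hhex, while ectoderm replicate 1 and upper molar lacked one at Foxc2. Genes for ligands of the pathway, 11 of them measured and most made by cells other than endothelium, had gene-end peaks at 10 and 10 in ectoderm, 10 and 9 in Sox2-positive cells and 8, 10 and 10 in the teeth, and at 9 and 10, 8 and 9, and 7, 7 and 8 among the top 38000 peaks. Of all genes, 55% to 64.6% had them in the full lists and 52.6% to 58.3% among the top 38000.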

How the data were processed

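ATAC-seq peak lists of 7 mouse libraries were deposited by the authors, 1 list per library. Per the submitters' processing notes, FastQC, Trimmomatic, Bowtie2, deepTools and Genrich were used with the mm10 build; versions, options and read filters are not given in the sources used here. The deposited signal of a peak (from 200.0 upward) and its deposited −log10 p (2.56 to 17.8) were not normalized between libraries, so they were used for ranks inside 1 list only. Autosomal peaks were assigned to RefSeq GRCm38.p6 genes by summit, and to promoter windows by an overlap of 1 bp. Strand was given for 16 of the 32 genes, hence either gene end was used. Groups came from the sample titles. Counts were compared with those of all 20665 autosomal protein-coding genes, with no test. Named were all genes of each presence pattern, and up to 8 regions per pattern by median percentile, at most 2 per gene. The genes, lists and alternatives were chosen with earlier results of these data known. Scripts (Python 3.11.15, pandas 2.3.3, numpy 2.4.6) were tested on simulated data. Alternatives changed list length, ranking, windows and the libraries used. X and Y peaks were left out.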

Additional observations from a re-analysis of the deposited data

How the results depend on the processing

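No paired analysis was possible because the results come from no test. Taking 38000 peaks by signal gave 1 gene open in all teeth and no Sox2-positive library in place of 0, and leaving out a Sox2-positive replicate gave 1 to 2 (Ptprb without replicate 1, Flt1 and Cd34 without replicate 2). Genes open in the teeth and not in ectoderm went from 1 to 0 with the strictest 50% of peaks or start ends alone, to 2 with peak intervals or a 500 bp window, and to 3 at 2.5 kb; leaving out an ectoderm replicate left 1. Genes open in ectoderm and not in Sox2-positive cells went from 5 to 2 at equal length by p or signal, 2 at 500 bp and 1 with start ends, and 5 to 10 with a replicate left out. Genes with more locus peaks in every tooth than in Sox2-positive cells went from 11 to 0 and 1 at equal length by p and signal, 4 in the strictest 50%, 7 at 10 kb and 0 at equal length away from ends of other genes. The same against ectoderm went from 4 to 2, 2, 0 and, away from other ends at equal length, 2, and 4 to 11 with an ectoderm replicate left out (11 without replicate 1). The tooth to ectoderm ratio, 1.04, turned to 0.969 and 0.968 at equal length by p and signal, 0.930 in the strictest 50%, 0.970 at 50 kb and 0.936 at equal length away from other ends, and was 1.09 at 10 kb. The incisor to Sox2-positive ratio, 1.23, ran from 1.00 to 1.41. Tooth-only regions went from 11 to 1 and 4 at equal length by p and signal, 2 in the strictest 50% and 7 at 10 kb, and 11 to 20 with a replicate left out (20 without Sox2-positive replicate 2). In the strictest 50%, the genes with more locus peaks in incisor than in molars went from 17 to 11. Those with more in Sox2-positive replicate 2 than 1 went from 14 to 6, and gene ends open in replicate 2 and not 1 from 6 to 2. These 3 counts and the setting away from other ends were added after seeing the data. The region and promoter-window patterns that set incisor against molars, or one sorted replicate against the other, were not planned either. They count the same peak lists and are no separate support. Leaving out a molar gave 19 to 21 for the incisor count. The causes were not tested. Unknown depth limits every absence: a gene without a peak may still be open.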
